A study of Mus musculus with 2 samples.

Results

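The 41 genes described here are the main cytosolic heat-shock chaperones and co-chaperones of the mouse, with a few close partners, out of 32285 genes in the deposited lung single-cell matrices. They comprise 7 HSP70 and HSP110 genes, 10 genes of HSP90 and its co-chaperones, 6 HSP40 genes, 3 genes of the small heat-shock protein and Bag3 group, 8 subunit genes of the TRiC chaperonin, 3 mitochondrial chaperone genes, 2 heat-shock factor genes and 2 cold-induced genes, Cirbp and Rbm3. They were chosen by gene family, and selected on their measured UMI counts and KO-labelled to WT ratios across the cell classes of these same 2 libraries, so every level, ratio and count below is a description and none is a test. Hspa9, Hspd1 and Hspe1 code for proteins that work in mitochondria, and Hsf1, Hsf2, Cirbp and Rbm3 code for regulators and not for chaperones, so these 7 members fall outside the cytosolic chaperones by location or role. Counts of chaperone members below cover the 39 genes other than Cirbp and Rbm3.

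Heat-shock proteins hold unfolded or newly made proteins and help them to fold. HSP70 proteins bind short hydrophobic stretches in cycles of ATP use, HSP40 partners (the Dnaj genes) bring clients to HSP70 and start its ATP cycle, and HSP110 proteins (Hsph1, Hspa4, Hspa4l) reload HSP70 with ATP. HSP90 receives clients such as kinases and steroid receptors from HSP70 through the adaptor made by Stip1, small heat-shock proteins hold unfolded proteins without ATP, and TRiC folds actin and tubulin in a closed chamber. When unfolded proteins build up, heat-shock factor 1 forms trimers, binds repeated short inverted motifs called heat-shock elements and raises transcription of many of these genes. Cirbp and Rbm3 are RNA-binding proteins whose transcripts rise on mild cooling and fall on warming. In the lung, ciliated cells build motile cilia from tubulin and dynein, proteins that need chaperones to fold and assemble.

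The promoters are shown first because the heat-shock element is the feature that sets the stress-responsive members apart from the others in the known biology. Each window ran from 250 bases before to 50 bases after a transcript start, from RefSeq sequences on build GRCm38.p6. The letters searched were GAANNTTC and TTCNNGAA, 8 bases each. Both patterns read the same on the 2 strands, so a match on 1 strand is a match on the other, and overlapping matches were all counted. A window was found for 33 of the 41 members, and St13, Hspa9, Rbm3, Hsf1, Hsp90aa1, Cct4, Hspa8 and Hsp90ab1 had none. At least 1 match lay in the windows of 17 of those 33 members (51.5%), against 4587 of 27025 genes in the whole table (17.0%). Windows with 2 or more matches were found for 7 of 33 members (21.2%) and for 2.21% of all genes. Of 16 heat-inducible members with a window, 11 held a match (68.8%). By family, a match was found in 3 of 6 HSP70 and HSP110 genes, 2 of 7 HSP90 and co-chaperone genes, 4 of 6 HSP40 genes, all 3 genes of the small heat-shock protein and Bag3 group, 3 of 7 TRiC genes and both mitochondrial chaperone genes searched. A match says that the letters are there, and nothing here shows that a factor bound them.

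The stretches below are written 5′ to 3′ on the strand of the gene, with the matching letters in capitals. They show the stress-inducible HSP70 pair, the shared promoter of the mitochondrial chaperonin genes, and members that the results below turn on.
Hspa1a: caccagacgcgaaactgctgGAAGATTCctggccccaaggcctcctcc
Hspa1b: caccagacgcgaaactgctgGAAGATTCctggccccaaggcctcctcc
Hspe1: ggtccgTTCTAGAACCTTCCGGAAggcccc
Hspd1: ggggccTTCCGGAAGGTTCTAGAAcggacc
Hspb1: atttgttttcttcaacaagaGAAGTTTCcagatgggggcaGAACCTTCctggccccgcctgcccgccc
Chordc1: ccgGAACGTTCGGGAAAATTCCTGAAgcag
Hsph1: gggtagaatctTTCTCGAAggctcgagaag
Dnaja1: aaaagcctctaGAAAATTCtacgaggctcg
Fkbp4: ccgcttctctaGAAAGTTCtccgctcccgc
Dnajb6: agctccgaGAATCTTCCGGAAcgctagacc

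The Hspa1a and Hspa1b stretches, at chr17:34972233-34972280 and chr17:34959315-34959362 on the minus strand, are the same 48 bases, and 296 of the 300 bases of their windows (98.7%) are identical. Both end upstream of any annotated exon in GENCODE M21. Hspe1 and Hspd1 lie head to head, and their stretches are the 2 strands of chr1:55088053-55088082, with 3 overlapping matches that both genes share, between starts 216 bases apart; a longer Hspd1 transcript has this stretch in its 5′ UTR. The Hspb1 stretch, at chr5:135887782-135887849 on the plus strand, holds 2 matches that begin 117 and 97 bases before the start, outside any annotated exon. The Chordc1 stretch, at chr9:18292260-18292289 on the plus strand, holds 4 overlapping matches across the RefSeq start and lies in the 5′ UTR of the GENCODE transcript. Of 3 matches in the Hsph1 window, the one shown, at chr5:149636351-149636380 on the minus strand, begins 54 bases before the start and touches the 5′ UTR of a longer transcript. The Dnaja1 stretch, at chr4:40722333-40722362 on the plus strand, overlaps annotated exons of Dnaja1 and of Gm6297. The Fkbp4 stretch, at chr6:128438789-128438818 on the minus strand, overlaps an exon of another gene, Gm10069. The Dnajb6 stretch, at chr5:29735844-29735873 on the plus strand, overlaps a 5′ UTR of Dnajb6 and an exon of Gm5129.

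The study compared lungs of C57B6/J wild-type (WT) mice with lungs of Plaur-/- mice, which lack the gene of the urokinase receptor, in a model of allergic airway inflammation. In the design, 8 mice of each genotype were sensitised with lipopolysaccharide and ovalbumin (LPS/OVA) on days 0 and 7 and breathed an ovalbumin aerosol on day 14, so all groups were challenged and no untreated group is compared here. Digested lungs were sorted for cells without the blood-cell marker CD45.2, about 16000 live cells were loaded into a Chromium droplet controller for an aim of 10000, and 1 library was made per genotype. The cell type label of both libraries reads total lung cell lysate in spite of the sort, and the number of mice behind each library is not given.

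The WT library held 11776 barcodes and 57028943 UMIs (unique molecular identifiers, 1 per captured transcript), the Plaur KO-labelled library 9771 barcodes and 51529241 UMIs, and 30 barcodes occurred in both. After filters 10239 and 8966 cells were kept, with median depths of 4840 and 5542 UMIs. Doublet calls took out 5.56% of the filtered WT cells and 1.57% of the KO-labelled ones. Plaur UMIs were counted in both libraries in every compared class, so the transcript count does not show the knockout. Plaur stood higher in the KO-labelled library in 5 classes: at 2.22 CPM (UMIs of the gene per 1000000 UMIs of the class) in WT and 17.6 CPM in KO-labelled AT2-like cells, 12.7 and 47.1 in ciliated-like, 8.73 and 19.6 in airway secretory-like, 112 and 157 in general capillary-like and 66.3 and 86.4 in venous endothelial-like cells. It stood lower in aerocyte-like (474 and 238), mesothelial-like (146 and 83.8) and adventitial fibroblast-like cells (76.0 and 49.6). Which part of Plaur was deleted is not given in the sources used here, so that library is named by its label, KO-labelled. Clusters were named from marker lists, and the 8 classes with 50 or more cells in the WT and in the KO-labelled library were compared. These were AT2-like cells, which make surfactant (3813 WT and 5826 KO-labelled cells), ciliated-like (957 and 587), airway secretory-like (359 and 100), general capillary-like (1263 and 839), aerocyte-like, the wide capillary cells of gas exchange (568 and 422), venous endothelial-like (264 and 158), adventitial fibroblast-like (1239 and 455) and mesothelial-like cells (910 and 266). All 12 AT2 markers and all 13 ciliated markers had UMIs in their own class in both libraries. This is no check of the names, since the classes were named from these lists. All 12 AT2 markers also had UMIs in every other compared class. The fibroblast class joins 2 clusters, of which the larger also had the alveolar fibroblast marker Inmt among its 10 leading genes. The venous endothelial-like class also joins 2 clusters. The smaller, of 115 cells, had 4 venous and 4 arterial endothelial markers among its 50 leading genes, so this class may be mixed.

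UMIs of each gene were summed per class and library. Each ratio below is the log2 of KO-labelled over WT CPM with an exact 95% interval that covers counting error only, and with 1 library per genotype no difference has a replicate check. A centred ratio is that ratio minus the median ratio of all genes with at least 20 UMIs in the class, a median that lay between -0.30 (airway secretory-like) and -0.01 (adventitial fibroblast-like). A gene counts as higher or lower where its centred ratio is at least 0.5 in size, that is 1.41-fold, and the interval, centred the same way, lies clear of 0.

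Chaperone members were higher in the KO-labelled library in every class compared, and almost none were lower. In AT2-like cells 15 of 39 were higher and none lower, against 2.31% higher and 4.96% lower among 13829 genes. Ciliated-like cells had 22 of 39 higher and none lower (all genes 3.80% and 3.94%), and airway secretory-like cells 12 of 39 and none (all genes 3.91% and 4.22%). Among endothelial classes, 18 of 37 measured members were higher in general capillary-like cells (all genes 4.83% higher and 4.35% lower), 12 of 37 in aerocyte-like cells (4.66% and 2.63%) and 13 of 34 in venous endothelial-like cells (8.67% and 6.72%), with no member lower. Mesothelial-like cells had 16 of 39 higher and none lower (all genes 6.93% and 6.90%). Adventitial fibroblast-like cells had the smallest share, 8 of 39 higher and 1 lower (all genes 4.06% and 4.43%). With cells thinned to 1000 UMIs the counts of higher members were 6 in venous endothelial-like, 7 in airway secretory-like and 10 in mesothelial-like cells. With each library clustered apart they were 7 in airway secretory-like and 5 in adventitial fibroblast-like cells. Because the members were chosen with these ratios known, nothing is read from the distance between these shares.

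Measured as medians, the centred ratio of the chaperone members was 0.55 in ciliated-like, 0.46 in general capillary-like, 0.45 in venous endothelial-like, 0.42 in mesothelial-like, 0.37 in aerocyte-like, 0.35 in AT2-like, 0.34 in airway secretory-like and 0.21 in adventitial fibroblast-like cells; over all genes it is 0 by construction. Over all classes, 116 of 303 measured pairs of a chaperone member and a class were higher and 1 was lower. Of the 39, 30 were higher in at least 1 class and 9 in none, and Hspa8, Hsp90ab1 and Fkbp4 were higher in all 8. The 9 without a higher class were Dnaja2, Dnajb4, Dnajb6, Ptges3, Cct2, Cct6a, Hspa9, Hsf1 and Hsf2. The only lower pair was Dnajb1 in adventitial fibroblast-like cells.

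**Figure D1:**
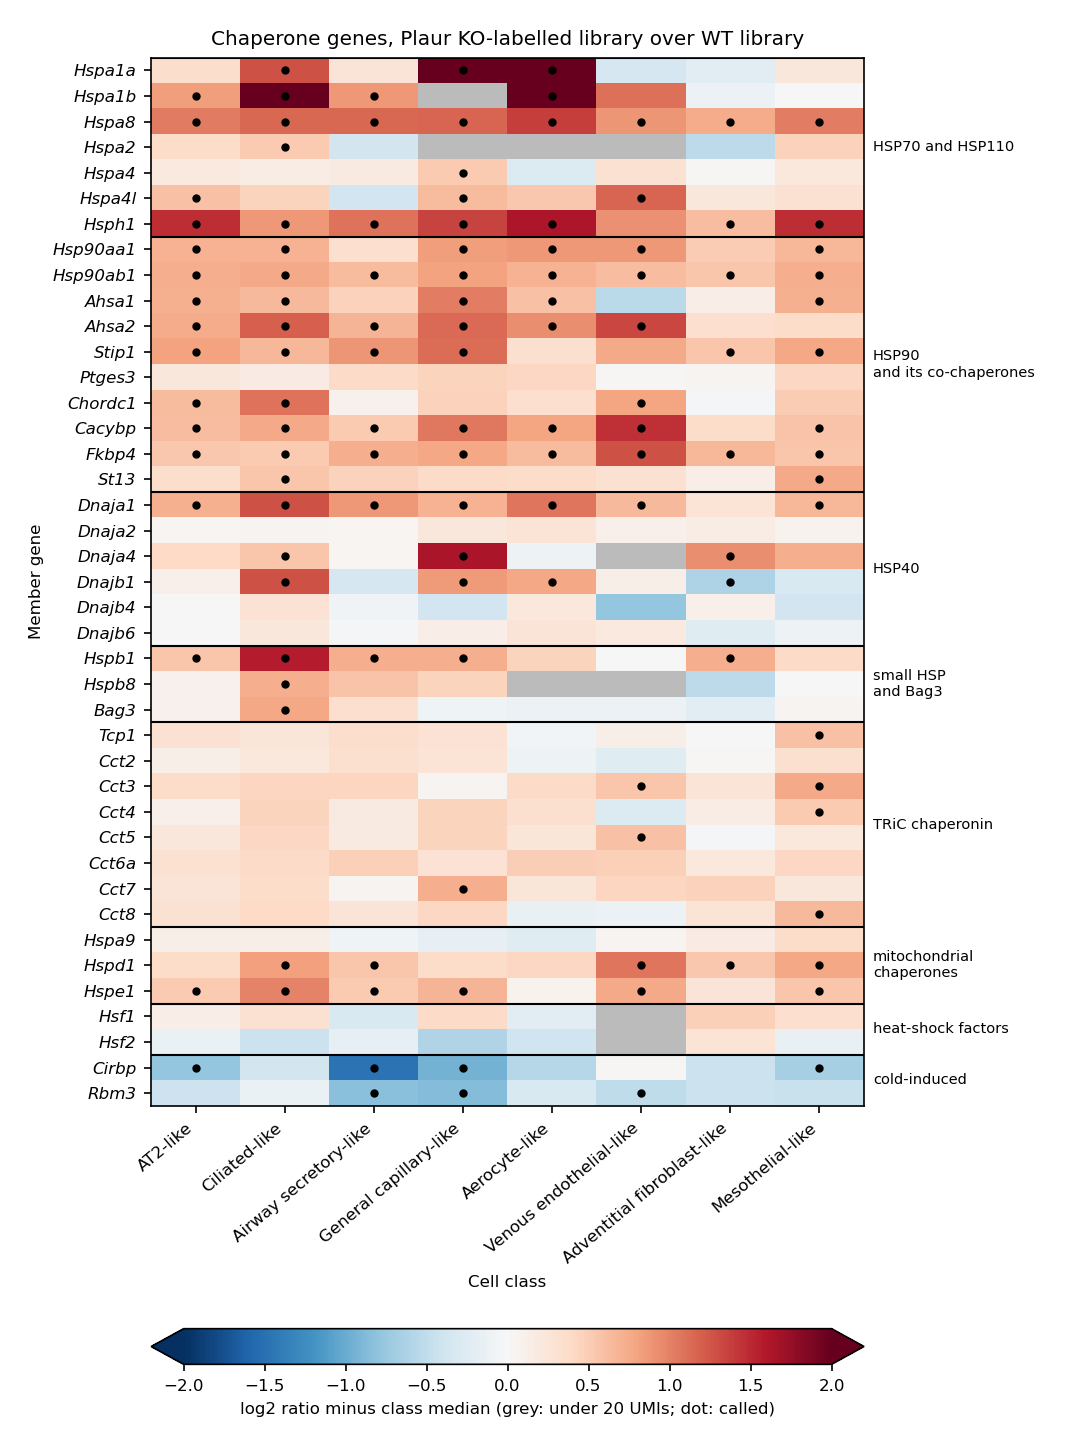
Centred log2 ratio of each of the 41 members (rows, by family) in each of the 8 compared classes (columns), red for higher in the Plaur KO-labelled library and blue for lower, with a dot where the gene counts as higher or lower and grey where it had under 20 UMIs. Rows of Hspa8, Hsp90ab1 and Fkbp4 carry a dot in all 8 classes, the TRiC rows carry few, and Cirbp and Rbm3 form the blue rows at the foot.

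The classes themselves differed in chaperone level, and the class with the most was mostly the same in both libraries. Of the 41 members, 35 had the same class at the top in both libraries, and for 30 of them this was the ciliated-like class. Hsp90aa1, the inducible cytosolic HSP90, stood at 8474 CPM in WT and 13159 CPM in KO-labelled ciliated-like cells, and in no other class above 715 and 1078 CPM. Hsph1, an HSP110 gene, stood at 665 and 1154 CPM in ciliated-like cells against 9.17 and 23.7 CPM in AT2-like cells, its lowest class. Hspa4l had 981 and 1276 CPM and the testis-linked HSP70 gene Hspa2 342 and 468 CPM in ciliated-like cells, against 2.78 and 3.32 CPM of Hspa2 in AT2-like cells. Hspb1, which codes for the small heat-shock protein HSP27, differed from these: it was highest in aerocyte-like cells (2671 and 3496 CPM), with mesothelial-like cells next (1685 and 2083 CPM). Hspa1a, Dnajb4, Hspb8 and Bag3 had their highest level in mesothelial-like cells in both libraries.

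**Figure D2:**
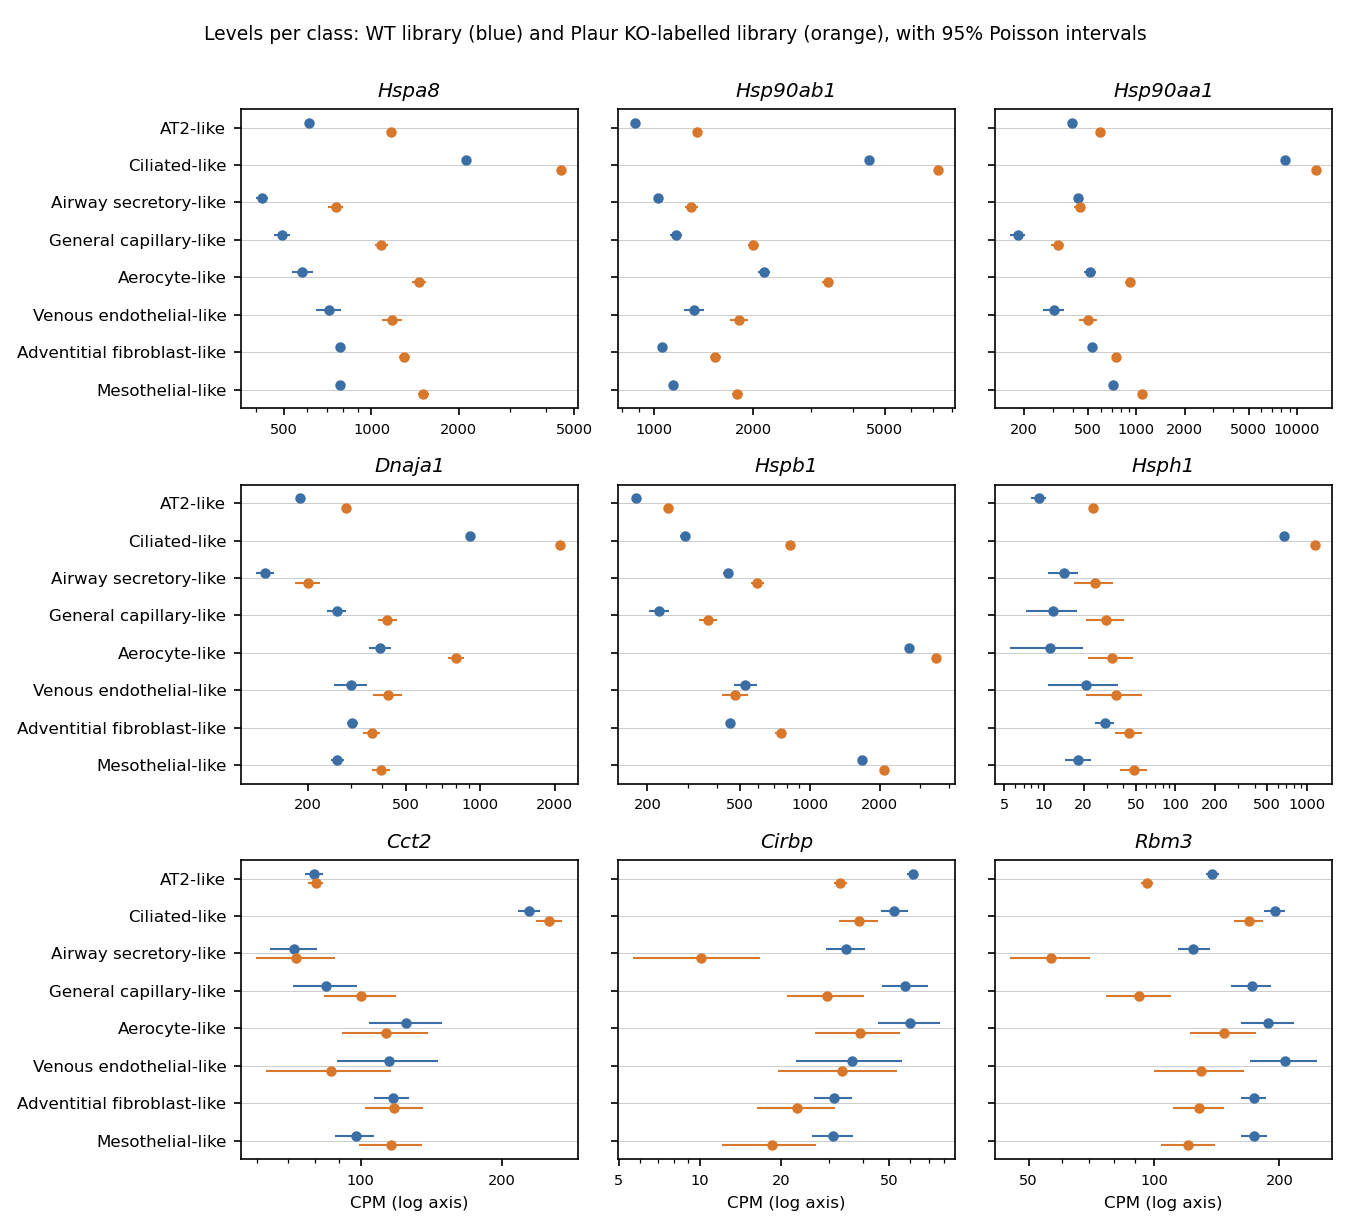
CPM (log axis) of 9 members in each compared class, WT library in blue and Plaur KO-labelled library in orange, with exact 95% Poisson intervals that cover counting error only. Hspa8 and Hsp90ab1 lie further right in the KO-labelled library in all 8 classes, Cct2 points lie close together, and Cirbp and Rbm3 lie further left.

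Among the HSP70 and HSP110 genes, Hspa8 had the most even difference. Hspa8 codes for the constitutive HSP70 that is present in all cells, at chr9:40800984-40810087. Its level was 610 CPM in WT and 1167 CPM in KO-labelled AT2-like cells, a log2 ratio of 0.94 (95% interval 0.91 to 0.96). In ciliated-like cells it was 2115 and 4493 CPM (1.09, 1.05 to 1.12). Over the 8 classes its centred ratio ran from 0.74 in adventitial fibroblast-like to 1.38 in aerocyte-like cells (577 and 1457 CPM), with a median of 1.09. The KO-labelled library was thus the higher one in 8 of 8 classes, and by 1.66-fold or more before centring.

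Hsph1, which reloads HSP70 with ATP and codes at chr5:149614287-149636376, was higher in 7 of 8 classes. The AT2-like values were 9.17 CPM in WT and 23.7 CPM in KO-labelled cells (log2 ratio 1.37, 1.16 to 1.58), the largest centred ratio of any member in that class, 1.47. Ciliated-like cells had 665 and 1154 CPM (0.80, 0.73 to 0.86), and mesothelial-like cells 18.3 and 48.4 CPM (1.40, 0.92 to 1.89). In the remaining class, venous endothelial-like, 12 and 18 UMIs gave an interval that included 0. Its centred ratio ran from 0.62 in adventitial fibroblast-like to 1.61 in aerocyte-like cells. The other HSP110 genes differed less. Hspa4l was higher in 3 classes, with 38.0 and 52.7 CPM in AT2-like cells (0.47, 0.36 to 0.59), and its lowest centred ratio was -0.39 in airway secretory-like cells. Hspa4 was higher in general capillary-like cells only (98.6 and 140 CPM), and had 97.8 and 105 CPM in AT2-like cells. Hspa2 was measured in 5 classes and was higher in ciliated-like cells (0.45, 0.36 to 0.55).

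The stress-inducible pair Hspa1a and Hspa1b varied most from class to class. These 2 near-identical genes, at chr17:34969190-34972156 and chr17:34956436-34959238, are the textbook heat-shock HSP70 genes, and how the authors' counting shared reads between them is not known, so their UMIs are also given as a sum. Aerocyte-like cells had a summed level of 18.2 CPM in WT (18 UMIs) and 114 CPM in KO-labelled cells (94 UMIs), a log2 ratio of 2.65 (1.91 to 3.47). Ciliated-like cells had 14.7 and 48.8 CPM (1.73, 1.35 to 2.12), and general capillary-like cells 6.93 and 22.5 CPM (1.70, 0.71 to 2.77) from 13 and 29 UMIs. AT2-like cells had 55.4 and 76.0 CPM (0.46, 0.36 to 0.55). In the 4 remaining classes the interval of the uncentred ratio included 0. These were mesothelial-like (106 and 112 CPM) and airway secretory-like cells (33.5 and 39.8 CPM), with venous endothelial-like (69.8 and 70.7 CPM) and adventitial fibroblast-like cells (64.9 and 57.0 CPM). The centred ratio of the sum was 0.55 in airway secretory-like cells. Its lower bound before centring, -0.21, lay above the class median of -0.30, so the sum counts as higher there. It was 0.18 in venous endothelial-like, 0.16 in mesothelial-like and -0.18 in adventitial fibroblast-like cells.

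Counted apart, Hspa1b was 21.6 CPM in WT and 35.8 CPM in KO-labelled AT2-like cells (0.73, 0.59 to 0.88), and Hspa1a 33.8 and 40.1 CPM (0.25, 0.13 to 0.37), which is under the size used here. Ciliated-like cells had 7.18 and 16.6 CPM of Hspa1a and 7.53 and 32.2 CPM of Hspa1b. Over the 8 classes the centred ratio of Hspa1a ran from -0.33 in venous endothelial-like to 2.72 in aerocyte-like cells, and that of Hspa1b over 7 measured classes from -0.12 to 2.69. These small counts moved with 2 settings. With doublets kept, the centred ratio of Hspa1a in ciliated-like cells was 0.03 in place of 1.28 and that of Hspa1b 0.90 in place of 2.16. With cells thinned to equal depth, the centred ratio of Hspa1a in AT2-like cells was 0.06 in place of 0.35.

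Among HSP90 and its co-chaperones, 8 of 10 genes were higher in AT2-like and 9 of 10 in ciliated-like cells, and none was lower in the 8 compared classes. Hsp90ab1, the constitutive cytosolic HSP90 at chr17:45567775-45573271, stood at 880 CPM in WT and 1349 CPM in KO-labelled AT2-like cells (0.62, 0.59 to 0.64). The Hsp90ab1 values in ciliated-like cells were 4477 and 7240 CPM (0.69, 0.67 to 0.72). The centred ratio of Hsp90ab1 stayed between 0.55 and 0.80 in the 8 classes. Hsp90aa1 stood at 396 and 594 CPM in AT2-like cells (0.58, 0.55 to 0.62) and had a ratio of 0.63 (0.62 to 0.65) in ciliated-like cells. It was higher in 6 classes, with centred ratios up to 0.87. In adventitial fibroblast-like cells its centred ratio, 0.50 after rounding, lay just under the size used, and in airway secretory-like cells it was 0.34.

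Most co-chaperones were higher in several classes and a few in hardly any. Stip1, which links HSP70 to HSP90, had 27.3 and 44.6 CPM in AT2-like cells (0.71, 0.58 to 0.84) and was higher in 6 classes. Fkbp4, a steroid receptor co-chaperone, had 153 and 207 CPM in AT2-like cells (0.44, 0.38 to 0.49), with a centred ratio between 0.52 and 1.28 over the 8 classes. Ahsa1, the activator of the HSP90 ATPase, and its relative Ahsa2 were higher in 5 and 6 classes. In ciliated-like cells Ahsa2 had 97.8 and 215 CPM and Ahsa1 207 and 311 CPM. Cacybp was higher in 7 classes, with 55.8 and 79.5 CPM in AT2-like cells. Chordc1 had 92.5 and 187 CPM in ciliated-like cells (1.02, 0.85 to 1.18) and 51.2 and 49.6 CPM in adventitial fibroblast-like cells (-0.05, -0.43 to 0.32). St13, which binds HSP70, was higher in 2 classes. Ptges3, the p23 co-chaperone of HSP90, was higher in none, with 141 and 152 CPM in AT2-like and 922 and 990 CPM in ciliated-like cells.

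The HSP40 genes, partners of HSP70, were divided. Dnaja1, a main partner of Hspa8 at chr4:40722150-40737149, had 187 CPM in WT and 285 CPM in KO-labelled AT2-like cells (0.61, 0.56 to 0.66). Ciliated-like cells had 908 and 2100 CPM (1.21, 1.16 to 1.26) and aerocyte-like cells 393 and 797 CPM (1.02, 0.84 to 1.20). Dnaja1 was higher in 7 of 8 classes, all but adventitial fibroblast-like cells, where it had 303 and 363 CPM, and its centred ratio ran from 0.27 to 1.28. Dnaja4 was higher in 3 of 7 classes. Dnaja2, Dnajb4 and Dnajb6 were higher in none, with Dnajb6 at 91.8 and 85.4 CPM in AT2-like cells although its promoter holds overlapping heat-shock letters. Dnajb4 had its lowest centred ratio, -0.77, in venous endothelial-like cells on 30 and 14 UMIs.

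Dnajb1, the stress-inducible HSP40 at chr8:83608193-83612653, was the one member higher in some of the 8 compared classes and lower in another. In ciliated-like cells it stood at 82.3 CPM in WT and 190 CPM in KO-labelled cells (1.20, 1.04 to 1.38). In adventitial fibroblast-like cells it stood at 47.0 and 30.4 CPM (-0.63, -1.11 to -0.18), from 226 and 49 UMIs. AT2-like cells had nearly equal levels, 24.9 and 24.7 CPM (-0.01, -0.15 to 0.14). General capillary-like cells (24.5 and 43.4 CPM) and aerocyte-like cells (26.3 and 43.8 CPM) were also higher. Mesothelial-like (80.4 and 62.0 CPM) and airway secretory-like cells (30.3 and 19.6 CPM) lay below their class medians without counting as lower. The difference between classes was not tested, and the Dnajb1 ratio was recomputed under other settings in AT2-like and ciliated-like cells only.

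Of the small heat-shock proteins, Hspb1 was higher in 5 of 8 classes. Its level was 179 CPM in WT and 246 CPM in KO-labelled AT2-like cells (0.46, 0.40 to 0.51), and 291 and 824 CPM in ciliated-like cells (2.83-fold, log2 interval 1.42 to 1.59). The centred ratio there, 1.57, was the second largest there after Hspa1b, but with doublets kept Hspb1 had 1.46 and Hspa1b 0.90. Venous endothelial-like cells had 528 and 477 CPM (-0.15, -0.40 to 0.10), the lowest centred ratio of Hspb1, 0.01. Hspb8, a small heat-shock protein that works with Bag3 in clearing damaged proteins, and Bag3 itself were higher in ciliated-like cells only: Hspb8 with 13.2 and 20.7 CPM and Bag3 with 20.4 and 33.5 CPM. In AT2-like cells Bag3 stood at 33.3 and 32.7 CPM (-0.03, -0.16 to 0.10) and in mesothelial-like cells, its highest class, at 92.1 and 91.3 CPM. The centred ratio of Bag3 ran from -0.22 to 0.78.

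Few TRiC genes counted as higher. All 8 lay above the class median, however, in AT2-like, ciliated-like, airway secretory-like, general capillary-like and mesothelial-like cells. In AT2-like, ciliated-like, airway secretory-like, aerocyte-like and adventitial fibroblast-like cells none of the 8 subunit genes counted as higher, with family medians between 0.18 and 0.39. Mesothelial-like cells were the exception with 4 of 8 higher, Tcp1 (130 and 184 CPM), Cct3 (99.3 and 158 CPM), Cct4 (84.8 and 117 CPM) and Cct8 (89.7 and 134 CPM). Venous endothelial-like cells had Cct3 and Cct5 and general capillary-like cells Cct7 as higher. No subunit was lower in the 8 compared classes. Tcp1 in AT2-like cells stood at 88.6 and 102 CPM (0.20, 0.13 to 0.28) and in ciliated-like cells at 154 and 174 CPM (0.17, 0.02 to 0.32). Cct2 stood at 79.5 and 80.1 CPM in AT2-like cells (0.01, -0.07 to 0.09) and at 229 and 253 CPM in ciliated-like cells (0.14, 0.02 to 0.27). The centred ratio ran from -0.06 to 0.58 for Tcp1 and from -0.25 to 0.32 for Cct2. Cct6a lay above the class median in all 8 classes, up to 0.49, but never counted as higher.

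The head-to-head genes Hspe1 and Hspd1 code for the mitochondrial chaperonin lid and barrel. Hspe1 was 140 CPM in WT and 187 CPM in KO-labelled AT2-like cells (0.41, 0.36 to 0.47) and 727 and 1377 CPM in ciliated-like cells (0.92, 0.86 to 0.98). Hspd1 was 92.6 and 111 CPM in AT2-like cells (0.26, 0.18 to 0.33) and 452 and 765 CPM in ciliated-like cells (0.76, 0.68 to 0.84). Hspe1 was higher in 6 and Hspd1 in 5 classes, and both lay above the class median in all 8, from 0.07 to 0.99 for Hspe1 and from 0.36 to 1.07 for Hspd1. Hspa9, the mitochondrial HSP70, was higher in none: 90.1 and 91.4 CPM in AT2-like cells and 111 and 115 CPM in ciliated-like cells.

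The genes of the heat-shock factors themselves were low and did not count as higher in any of the 8 compared classes. Hsf1, the main factor of the heat-shock response, stood at 14.4 CPM in WT and 14.8 CPM in KO-labelled AT2-like cells (0.04, -0.16 to 0.23). Ciliated-like cells had 23.1 and 27.3 CPM (0.24, -0.15 to 0.62), and the centred ratio of Hsf1 ran from -0.31 to 0.47 over 7 measured classes. Hsf2 lay below the class median in 6 of 7 measured classes and above it in adventitial fibroblast-like cells. Its ciliated-like values were 39.7 and 28.1 CPM (-0.50, -0.85 to -0.16). Hsf1 is known to be controlled mainly as a protein, which these counts do not measure.

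The cold-induced genes went the other way. Cirbp, at chr10:80165985-80172786, stood at 61.1 CPM in WT and 33.0 CPM in KO-labelled AT2-like cells (log2 ratio -0.89, centred -0.78). Ciliated-like cells had 52.3 and 38.7 CPM (-0.44, -0.73 to -0.14), and airway secretory-like cells 34.7 and 10.1 CPM (-1.78, -2.65 to -1.01) from 143 and 15 UMIs. Cirbp was lower in 4 classes, AT2-like, airway secretory-like, general capillary-like and mesothelial-like, and lay below the class median in 7 of 8. In venous endothelial-like cells the levels were 36.6 and 33.4 CPM (-0.13, -1.15 to 0.86), on 21 and 17 UMIs, a centred 0.03, and the lowest centred ratio was -1.48 in airway secretory-like cells.

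Rbm3, on the X chromosome at chrX:8138975-8145880, lay below the class median in all 8 classes, from -0.14 to -0.87, and was lower in airway secretory-like, general capillary-like and venous endothelial-like cells. AT2-like cells had 138 CPM in WT and 96.4 CPM in KO-labelled cells (-0.52, -0.58 to -0.45), ciliated-like cells 195 and 169 CPM (-0.21, -0.35 to -0.07), and general capillary-like cells 172 and 92.3 CPM (-0.89, -1.21 to -0.59). A further 6 genes linked to cold through splicing or temperature-dependent kinases, Srsf5, Sf3b1, Rbm5, Clk1, Clk4 and Cdk11b, had medians between -0.12 and 0.10 over the classes, with none higher and 1 lower, Srsf5 in aerocyte-like cells. In AT2-like cells the highest of these were Cdk11b (0.21), Clk4 (0.03) and Rbm5 (0.03), and the lowest Srsf5 (-0.27), Clk1 (-0.25) and Sf3b1 (0.01).

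**Figure D3:**
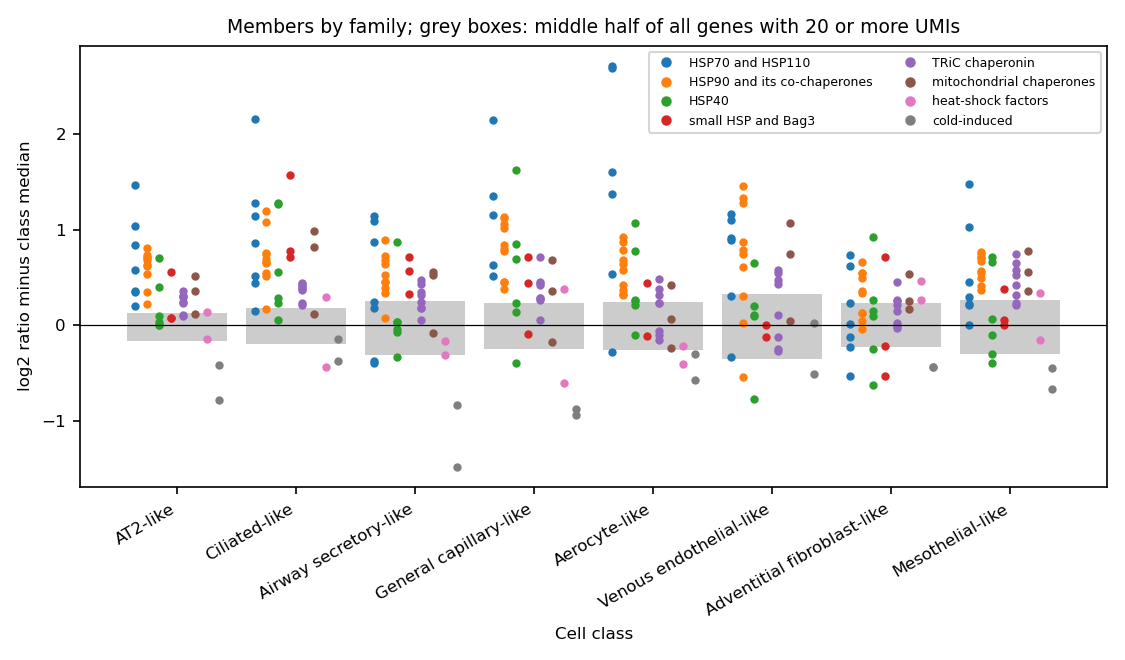
Centred log2 ratio of each measured member, by family (colour) and class, with grey boxes over the middle 50% of all genes with at least 20 UMIs. In ciliated-like cells the HSP90 group lies above the grey box apart from Ptges3, and the cold-induced pair lies at the foot in most classes.

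Seen by class, the leading and trailing members among those with at least 100 UMIs were largely the same few genes. Hsph1, Hspa8 and Hspa1b led in AT2-like cells, Hspa1b, Hspb1 and Hspa1a in ciliated-like cells, and Hspa8, Stip1 and Dnaja1 in airway secretory-like cells. Hspa8, Ahsa2 and Stip1 led in general capillary-like cells, Hspa8, Dnaja1 and Hsp90aa1 in aerocyte-like cells, and Hspa8, Hsp90aa1 and Hspe1 in venous endothelial-like cells. In mesothelial-like cells Hsph1, Hspa8 and Hspd1 led, and in adventitial fibroblast-like cells Hspa8, Hspb1 and Fkbp4. The lowest were Cirbp with Rbm3 and Hsf2 in AT2-like and ciliated-like cells, Cirbp with Rbm3 and Hspa9 in general capillary-like cells, Cirbp with Rbm3 and Hspa4l in airway secretory-like cells, and Cirbp with Rbm3 and Dnajb4 in mesothelial-like cells. Rbm3, Hspa4 (-0.28) and Cct8 (-0.15) were lowest in aerocyte-like cells, Rbm3, Cct4 (-0.27) and Cct2 (-0.25) in venous endothelial-like cells, and Dnajb1, Hspb8 (-0.53) and Cirbp (-0.43) in adventitial fibroblast-like cells.

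Members known from textbooks to be induced by heat had higher medians than the whole set, which contains them. Of 18 such genes, 16 were higher in ciliated-like cells (median centred ratio 0.84) and 13 in AT2-like cells (0.60). The medians of all 39 chaperone members were 0.55 and 0.35. The list was drawn up with results of these data known, so nothing is read from this distance. The lowest of the 18 in AT2-like cells were Dnajb4 (0.00), Bag3 (0.08) and Dnajb1 (0.10), which are classical heat-shock genes too. The list median was 0.78 in general capillary-like, 0.77 in venous endothelial-like, 0.61 in aerocyte-like, 0.55 in mesothelial-like, 0.53 in airway secretory-like and 0.26 in adventitial fibroblast-like cells. Split by promoter letters, 12 of 17 members with a match were higher in ciliated-like cells (median 0.78) and 6 of 15 without one (0.43). In AT2-like cells the counts were 7 of 17 (0.36) and 5 of 15 (0.31). Members without a window, among them Hspa8, Hsp90ab1 and Hsp90aa1, are not in this split.

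Other protein-folding genes were set beside the members. The members and these lists were chosen with results of these data known, so nothing is read from the distance between them. Of 52 further cytosolic chaperone and co-chaperone genes that are not members, among them the Pfdn genes of prefoldin, 50 were measured in AT2-like cells, with 2 higher, none lower and a median of 0.08. The 2 were Fkbp5 (4.57 and 7.04 CPM), a glucocorticoid-responsive co-chaperone, and Dnajb2 (36.4 and 52.1 CPM). Next came Hspa12a (0.52), whose interval included 0, and the lowest were Hspb2 (-0.47), Hspa14 (-0.16) and Hspb6 (-0.15). In the other classes the median of this list lay between -0.02 and 0.21, with 0 to 7 genes higher. The lens and muscle small heat-shock gene Cryab, a known heat-shock gene, stood at 60.2 and 54.0 CPM in AT2-like cells (-0.16, -0.25 to -0.06).

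The chaperones of the endoplasmic reticulum, which answer to unfolded secreted proteins through other factors, were also higher in part. In AT2-like cells 5 of 21 were higher (median 0.25), led by Serpinh1 (51.7 and 77.3 CPM), the collagen chaperone that also has heat-shock control, Creld2 (22.1 and 31.7 CPM) and Dnajb9 (75.9 and 104 CPM), and the lowest were Dnajc10 (-0.13), Sil1 (0.03) and P4hb (0.07). Hspa5, their HSP70, had 371 and 481 CPM in AT2-like cells (0.37, 0.34 to 0.41). Airway secretory-like cells had 13 of 21 higher (median 0.63), mesothelial-like 10 (0.46) and adventitial fibroblast-like cells 9 (0.46). In these classes the list median was above that of the cytosolic set. In ciliated-like cells 2 of 21 were higher (0.17) and in aerocyte-like cells none (0.23), below the cytosolic set.

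Genes of protein breakdown and of handling stress differed little in AT2-like cells. None of 31 proteasome genes was higher or lower, but all 31 lay at or above the class median (list median 0.12). Psmc4 (0.29), Psma7 (0.21) and Psmc5 (0.19) were at the top, and Psma5 (0.00), Psma1 (0.01) and Psmd14 (0.01) at the foot. Immediate-early genes, which rise within minutes of cell handling, had 1 of 21 higher (Fosl1, 1.63 and 2.76 CPM) with a median of 0.02; Fosb (0.47) and Atf3 (0.30) came next, and Klf2 (-0.44), Fosl2 (-0.15) and Ier3 (-0.14) were lowest. In adventitial fibroblast-like cells, by contrast, 10 of 22 immediate-early genes were lower and 1 higher (median -0.46), and in mesothelial-like cells 4 of 22 were lower (median -0.21). In general capillary-like cells they lay above the middle, as the chaperones did, with 4 of 20 higher, 1 lower and a median of 0.39. Aerocyte-like cells had 2 of 19 higher and 1 lower (median 0.24), ciliated-like cells 2 of 22 higher and 1 lower (0.21), and venous endothelial-like cells 3 of 20 higher and 5 lower (0.03). Airway secretory-like cells had none of 19 higher and 1 lower (0.05). The part of handling in the chaperone ratios was not tested. Housekeeping genes had none higher or lower among 13 in AT2-like cells (median -0.04), with Rpl13a (0.13) and Hnrnpa2b1 (0.09) among the highest and B2m (-0.29), Tbp (-0.25) and Eef1a1 (-0.12) the lowest.

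The difference in summed chaperone UMIs was spread over cells and not held by a few. With each cell thinned to 1000 UMIs, the median number of chaperone member UMIs per cell was 4 in WT and 6 in KO-labelled AT2-like cells. Ciliated-like cells had 24 and 40, and their middle 50% of cells did not overlap, with 19 to 29 in WT and 32 to 48 in KO-labelled cells. Aerocyte-like cells had 8 and 13, mesothelial-like cells 6 and 9.5, adventitial fibroblast-like cells 5 and 7, general capillary-like cells 4 and 6, venous endothelial-like cells 5 and 6 and airway secretory-like cells 4 and 5. The order of the libraries was thus the same in all 8 classes. Abundant members weigh most in this sum. In AT2-like cells its mean was 4.25 in WT and 5.99 in KO-labelled cells, with Hspa8 at 0.612 and 1.15 and Hsp90ab1 at 0.874 and 1.35. Hspa1a, Hspa1b, Hsph1 and Dnajb1 had a UMI in at most 3.62% of thinned AT2-like cells of either library, so their spread over cells cannot be judged. The filter left out 243 of 1263 WT and 160 of 839 KO-labelled general capillary-like cells for low depth, and at most 61 of any other class and library.

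**Figure D4:**
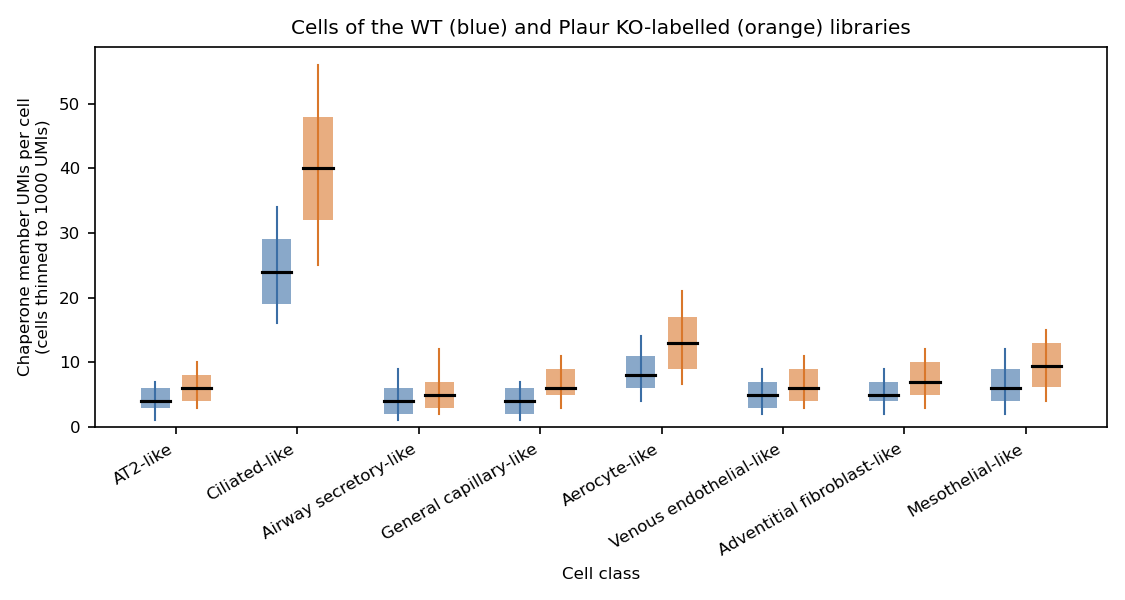
Chaperone member UMIs per cell after thinning each cell to 1000 UMIs, by class and library, with the median as a black line, the box over the middle 50% of cells and the line from the 10th to the 90th percentile. Boxes of the Plaur KO-labelled library (orange) sit above those of the WT library (blue) in ciliated-like cells without overlap, and overlap in the other classes.

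For Hspa8, 43.7% of thinned WT AT2-like cells (exact binomial interval 42.2 to 45.3) and 64.2% of KO-labelled ones (63.0 to 65.4) had a UMI, and 91.8% and 97.9% without thinning. Intervals of shares treat the cells of 1 library as independent. Cells are not replicates, so these intervals do not measure the spread between mice or preparations. The 5% of cells with most Hspa8 held 23.9% of its UMIs in WT and 19.2% in KO-labelled AT2-like cells. In ciliated-like cells the shares with a Hspa8 UMI were 80.7% and 96.9%. Hspa1a was sparse: 3.62% of WT and 3.49% of KO-labelled thinned AT2-like cells had a UMI, and 0.789% and 4.76% of aerocyte-like cells (intervals 0.215 to 2.01 and 2.85 to 7.42). The lowest share of Hspa1a was 0.294% in WT general capillary-like cells. No class is known to lack these genes, so the share that free RNA alone gives was not measured.

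AT2-like cells fell into 7 clusters. The median centred ratio of the chaperone members was above 0 in each, from 0.22 to 0.47. The lowest median, 0.22, was in cluster 3, whose leading genes include the AT1 genes Ager and Aqp5, and the clusters led by Retnla and Cxcl3 had 0.36 and 0.46. Hspa8 had ratios between 0.72 (cluster 3, 613 and 1011 CPM) and 1.01 (cluster 0, 545 and 1097 CPM). Fkbp4, higher in the class as a whole, did not count as higher in clusters 1, 2 and 8, with centred ratios of 0.49, 0.44 and 0.46. Cirbp ratios lay below 0 in all 7, from -0.68 to -1.28. Hspa1a lay on both sides: its ratio was 0.68 (0.40 to 0.95) in cluster 2, led by Retnla, and in cluster 3 it stood at 51.1 CPM in WT and 38.8 CPM in KO-labelled cells (-0.40, -0.67 to -0.13).

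**Figure D5:**
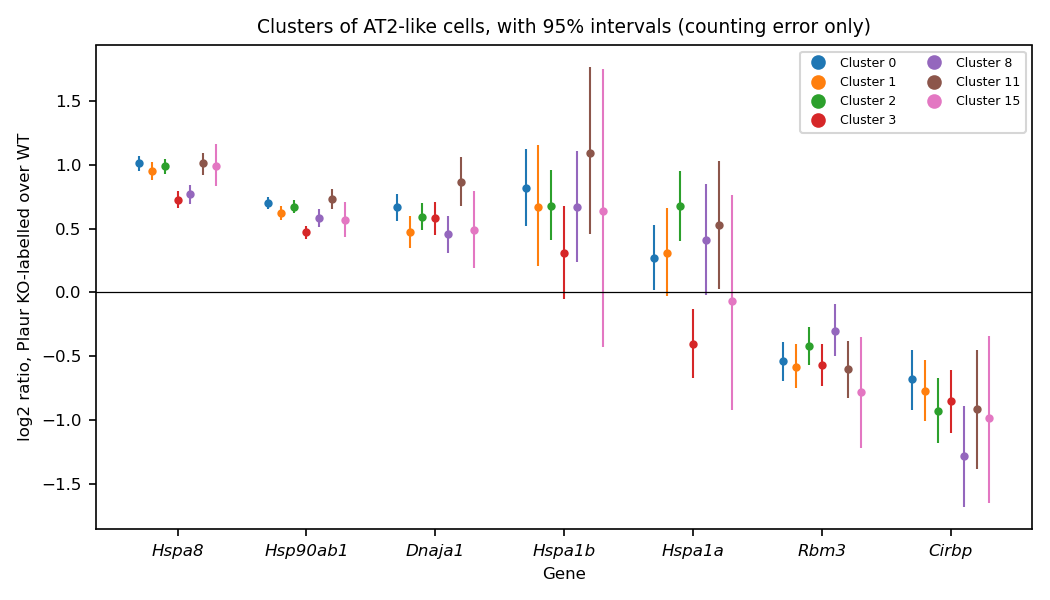
Log2 ratio of 7 members in each of the 7 clusters of AT2-like cells, with exact 95% intervals that cover counting error only. Ratios of Hspa8, Hsp90ab1 and Dnaja1 lie above 0 and those of Rbm3 and Cirbp below 0 in all 7 clusters, while Hspa1a lies on both sides.

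In the larger of the 2 adventitial fibroblast-like clusters, cluster 7, Hspa1a had 37.6 CPM in WT and 24.5 CPM in KO-labelled cells (-0.62, -1.29 to 0.00), and the chaperone median was 0.16. In cluster 10 the Hspa1a ratio was 0.38 (-0.42 to 1.13) on 62 and 20 UMIs, and the median was 0.36. Hspa8 levels were further apart in both (631 and 1137 CPM, and 977 and 1639 CPM). Fkbp4 counted as higher in cluster 10 (centred ratio 0.98) but not in cluster 7 (0.49). Chaperone medians were 0.45 and 0.27 in the aerocyte-like clusters, 0.55 and 0.50 in the general capillary-like ones and 0.46 and 0.36 in the venous endothelial-like ones. Of the venous endothelial-like clusters, cluster 14 had 8 of 32 members higher (all genes 4.66%). Cluster 22, with venous and arterial markers, had 4 of 25 (all genes 12.3%).

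In 6 small groups with 20 to 47 KO-labelled cells, the interval of the Hspa8 ratio lay above 0 in all 6. Its ratios ran from 0.73 (0.36 to 1.09) in T or NK-like cells to 1.91 (1.15 to 2.68) in neutrophil-like cells, the latter on 30 and 32 UMIs. For Hsp90ab1 the interval also lay above 0 in all 6, with the smallest ratio, 0.40 (0.21 to 0.60), in the unnamed cluster 20. The chaperone median lay between 0.29 in cluster 20 and 0.81 in neutrophil-like cells, where only 10 of 39 members were measured. Some members were lower in 2 of these groups. In smooth muscle-like cells 6 of 31 were higher and 3 lower (all genes 6.38% and 4.74%), the lower ones being Hspb1 (2832 and 1442 CPM), Cct4 (58 and 11 UMIs) and Hspa9 (71 and 13 UMIs), and the summed members had a ratio of 0.07. In cluster 20, 6 of 29 were higher and 2 lower (5.93% and 4.17%), the lower ones being Dnajb1 (81 and 7 UMIs) and Ptges3 (130 and 27 UMIs). None was lower in the other groups, with 11 of 27 higher in B or plasma-like (all genes 11.1% higher and 6.43% lower), 5 of 10 in neutrophil-like (12.5% and 6.52%), 9 of 33 in neuroendocrine-like (4.86% and 2.97%) and 11 of 25 in T or NK-like cells (8.27% and 5.73%).

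Some measures of the libraries moved with these differences. RNA of AT2-like cells was more abundant in other classes of the KO-labelled library: Sftpc, the most abundant AT2 gene, was 5333 CPM in WT and 60196 CPM in KO-labelled venous endothelial-like cells and 1459 and 13826 CPM in aerocyte-like cells, while airway secretory-like cells had 9721 and 8409 CPM. The 12 AT2 markers together gave 2104 and 18635 CPM in aerocyte-like and 3207 and 11094 CPM in ciliated-like cells, with none at 0. Scgb1a1 of airway secretory cells was mostly lower there instead, 2585 and 204 CPM in aerocyte-like cells, but higher in venous endothelial-like cells (1507 and 19056 CPM). The chaperone members summed to 4277 CPM in WT and 6003 CPM in KO-labelled AT2-like cells, and only general capillary-like cells had less in the WT library (4228 CPM) and only airway secretory-like cells less in the KO-labelled one (5286 CPM). With AT2 and airway secretory RNA subtracted, a setting added after the data were seen, 113 pairs were higher in place of 116. Median mitochondrial shares were lower in the KO-labelled library in all 8 classes, for example 4.07% and 3.20% in ciliated-like and 4.09% and 3.78% in AT2-like cells. Median depths were near equal in most classes (6380 and 6178 UMIs in AT2-like, 5960 and 5954 in ciliated-like cells) and apart in airway secretory-like cells (9908 and 13844). The part of mitochondrial share and depth in the ratios was not tested beyond the thinning given here. The 13 macrophage or monocyte markers summed to at most 8.90 CPM and the 13 T or NK markers to at most 10.1 CPM in any compared class and library. The 12 neutrophil markers reached 521 and 515 CPM in ciliated-like cells, with 4 and 8 of them at 0, and the 10 B or plasma cell markers 37.1 and 36.7 CPM in AT2-like cells. The parts of dissociation, sorting, sequencing run and genotype in these differences cannot be told apart, since each library was 1 preparation of 1 genotype.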

How the data were processed

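The authors deposited raw UMI counts per gene and barcode for each library, without normalization; they were written with Cell Ranger 7.0.0 per the file headers (versions 7.0.0 and 7.1.0, with build mm10, stand in the submitters' processing notes). How barcodes were chosen and whether intronic reads were counted is not given in the sources used here. The members and gene lists were chosen with earlier results of these data known.

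Barcodes needed 500 or more detected genes and no more than 15% of UMIs from mitochondrial genes, and Scrublet doublets (scanpy 1.11.5, expected 8%) were removed. The libraries were clustered jointly, with no batch integration, on 2000 variable genes, with members and other chaperones left out of them, 30 principal components, 15 neighbours and Leiden resolution 1 (leidenalg 0.10.2). Of 29 clusters, 26 were named, by at least 3 listed markers among 50 leading genes. UMIs were summed per class and library. CPM have exact Poisson intervals, ratios exact conditional binomial ones (scipy 1.17.1) and shares exact Clopper-Pearson ones. The ratio intervals and the calls were tested on simulated counts that held counting error only. That test did not cover filtering, doublet removal, clustering or naming. A gene needed 20 UMIs over both libraries. The 30 barcodes found in both libraries were kept as separate cells.

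All 41 members are accounted for. The main genes of each family have values in AT2-like and ciliated-like cells, and in each class the 3 highest and 3 lowest with 100 UMIs are named, as are up to 3 highest and 3 lowest genes of each other list in AT2-like cells; other values were named after they were seen. A few genes of these lists are not reported here. Alternatives covered cell filters, doublets, clustering, edgeR 4.0.16 TMM factors, totals, thinning to 1000 UMIs, means over cells, UMI minimums, the size that counts and the summed Hspa1 pair. Subtraction of free AT2 and airway secretory RNA was chosen after seeing the data. TMM scaling would move all uncentred ratios by 0.30 in airway secretory-like, 0.16 in venous endothelial-like and 0.10 in AT2-like cells. In the others the move would be 0.07 or less. Centring moves the ratios by nearly the same amounts, and with TMM in place of centring 116 pairs were higher, as with centring.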

Additional observations from a re-analysis of the deposited data

Results flagged for a closer look

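Dnajb1, the stress-inducible HSP40 gene, stood on opposite sides in different classes. Its centred log2 ratio was 1.27 in ciliated-like, 0.85 in general capillary-like and 0.78 in aerocyte-like cells, all higher in the Plaur KO-labelled library, and -0.62 in adventitial fibroblast-like cells, where it was lower. With 1 library per genotype the difference between these classes was not tested. With cells thinned to 1000 UMIs, 3.83% of WT and 2.96% of KO-labelled adventitial fibroblast-like cells had a Dnajb1 UMI (intervals 2.82 to 5.08 and 1.59 to 5.01). The intervals also overlapped in general capillary-like and aerocyte-like cells, but not in ciliated-like cells (7.36% and 13.9%). The Dnajb1 ratio was recomputed under other settings in AT2-like and ciliated-like cells only.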

How the results depend on the processing

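The median of the chaperone members kept its sign in all 8 classes under all alternatives run. Some settings changed which cells a class held. With doublets kept, a fibroblast cluster of 1190 cells had no name, and the adventitial fibroblast-like class was 1 cluster of 629 cells. With each library clustered apart, KO-labelled clusters of 395 and 334 cells closest to AT2 had no name. A KO-labelled cluster of 208 cells was named AT1, and 149 WT cells were named alveolar fibroblast. Its range was 0.29 to 0.40 in AT2-like cells and 0.50 to 0.59 in ciliated-like cells. The endothelial ranges were 0.46 to 0.61 (general capillary-like), 0.32 to 0.47 (aerocyte-like) and 0.30 to 0.59 (venous). Mesothelial-like cells had 0.29 to 0.54, airway secretory-like cells 0.15 to 0.42 and adventitial fibroblast-like cells 0.09 to 0.29. Of 126 recomputed counts, 107 stayed within 1.5 times the reported value and 19 did not. With each library clustered apart, 5 members were higher in adventitial fibroblast-like and 7 in airway secretory-like cells. With cells thinned, the counts were 10 in mesothelial-like, 7 in airway secretory-like and 6 in venous endothelial-like cells. A minimum of 100 UMIs, which leaves fewer genes, gave 7 in aerocyte-like, 7 in airway secretory-like and 8 in venous endothelial-like cells, and no minimum gave 4 in adventitial fibroblast-like and 7 in airway secretory-like cells. Asking for a size of 1 on the log2 scale left 32 pairs: 2 in AT2-like, 8 in general capillary-like, 0 in adventitial fibroblast-like, 8 in ciliated-like, 2 in mesothelial-like, 5 in aerocyte-like, 2 in airway secretory-like and 5 in venous endothelial-like cells. Where construction does not show it, the cause was not tested. Of 446 recomputed single-gene ratios 41 moved by more than their interval. Depth limits sparse members such as Hspa1a, and leaving out a library was not possible with 1 per genotype. No paired analysis was possible because each genotype has 1 library.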
